A study of Mus musculus with 16 samples.

Results

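The genes described here are 36 mouse genes of protein folding in the endoplasmic reticulum (ER) and of the unfolded protein response, taken by symbol from the 35328 genes of the deposited count table through their Ensembl identifiers. They fall into a chaperone arm of 29 genes, which includes the sensors Atf6 and Ern1 and the transcription factor Xbp1, and an Atf4 arm of 7 genes around the kinase Eif2ak3 and the transcription factor Atf4. The RNA came from the dorsal hippocampus of 16 male C57Bl6/J mice, in 4 groups of 4 mice each. Home cage water mice drank water and home cage caffeine mice drank caffeine at 0.3 g/L for 2 weeks from 8 to 9 weeks of age. Learning water and learning caffeine mice had the same drinks, were trained for 3 days in the Morris water maze, a pool in which mice learn the place of a hidden platform, and were killed 1 hour after the last training. Home cage mice are not described as swimming, so learning cannot be told apart from swimming and handling in these groups. All 36 genes were among the 17830 genes with enough counts to be tested.

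The ER is where membrane and secreted proteins, including receptors and neuropeptides, enter the secretory pathway and fold. When unfolded proteins build up, 3 sensors in its membrane respond. Ern1 (IRE1) splices the Xbp1 mRNA so that it encodes an active transcription factor, Atf6 travels to the Golgi and is cut to release one, and Eif2ak3 (PERK) phosphorylates the initiation factor eIF2 alpha, which lowers translation and favors that of Atf4. Xbp1 and Atf6 raise chaperones, disulfide isomerases and genes of ER-associated degradation, which returns misfolded proteins to the cytosol. Atf4 raises genes of amino acid supply and stress, such as Asns, Chac1, Trib3 and Ddit3 (CHOP). Neurons depend on the same machinery for the receptors, channels and peptides that they send to their synapses.

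Some genes of the chaperone arm rose after learning, and no gene of the smaller Atf4 arm passed the test. Over both treatments, 12 of the 29 chaperone arm genes were higher in learning than in home cage mice at an adjusted p under 0.1, the threshold at which a gene is called here, against 7.81% of all tested genes. Those 12 were the transcription factor gene Xbp1, the sensor gene Ern1, the chaperones and partners Hspa5, Hyou1, Pdia4, Pdia6, Dnajc3, Sdf2l1, Creld2 and Manf, and the degradation genes Herpud1 and Derl2. No chaperone arm gene was called lower, against 6.71% of all tested genes, and with 29 genes this 0 does not set the arm apart. None of the 7 Atf4 arm genes was called in either direction by edgeR, none had an unadjusted p under 0.05, and DESeq2 called none. With 7 genes, 0 calls is near the shares of all tested genes and does not set this arm apart. Of 25 other Atf4 targets outside the 36 genes, 6 were called higher and 1 lower. The median log2 fold change was 0.12 over the chaperone arm, -0.02 over the Atf4 arm and -0.01 over all tested genes. Of the 29 chaperone arm genes 25 had a log2 fold change above 0, as had 46.0% of all tested genes. At an unadjusted p under 0.05 there were 14 higher chaperone arm genes, against 12.6% of all tested genes.

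Values are given as CPM, read counts relative to the library total after scaling by edgeR's TMM method, in the order of mice 6, 8, 11 and 20 for home cage water, 2, 9, 14 and 17 for home cage caffeine, 24, 33, 36 and 38 for learning water, and 22, 27, 30 and 40 for learning caffeine. Adjusted p values come from edgeR's quasi-likelihood test over the 17830 genes. Positions are on mm10 in the GENCODE annotation. In these tissue pieces a smaller share of cells that express a gene cannot be told apart from less RNA per cell.

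Of the transcription factor and sensor genes, Xbp1 (ENSMUSG00000020484, chr11:5520659-5525893) changed most. It stood at 63.4, 76.4, 59.1 and 66.9 CPM in home cage water mice and at 61.3, 84.4, 72.9 and 66.2 CPM in home cage caffeine mice. After learning it was at 86.0, 79.3, 79.5 and 70.7 CPM under water and at 93.4, 86.1, 100.5 and 95.7 CPM under caffeine. All 4 learning caffeine mice were above all home cage caffeine mice, whereas the learning water mouse 38 was below the highest home cage water mouse. The log2 fold change was 0.40 (SE 0.09, adjusted p = 0.0304) under caffeine, 0.25 (SE 0.09, adjusted p = 0.288) under water and 0.32 (SE 0.07, adjusted p = 0.0067) on average. The counts do not separate spliced from unspliced Xbp1 mRNA.

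Ern1, whose product splices Xbp1, had 12.9, 14.4, 14.3 and 12.1 CPM in home cage water mice and 13.0, 13.8, 14.7 and 12.0 CPM in home cage caffeine mice. In learning water mice it had 16.2, 14.7, 16.3 and 15.3 CPM, all above the home cage water mice, and in learning caffeine mice 14.1, 12.8, 15.1 and 15.2 CPM, which overlapped the home cage caffeine mice. It was the only 1 of the 29 chaperone arm genes (3.45%) whose learning water mice were all above the home cage water mice. This share is near the 3.87% of all tested genes, so it does not set the arm apart. Its average log2 fold change of 0.16 (SE 0.06) just passed the threshold (adjusted p = 0.0996). Atf6, the other sensor, was at 104, 128, 112 and 101 CPM in home cage water mice and at 99.9, 121, 119 and 81.4 CPM in home cage caffeine mice. It was at 112, 119, 126 and 124 CPM in learning water and at 118, 107, 107.5 and 123 CPM in learning caffeine mice. The groups overlapped, and the average log2 fold change of Atf6 was 0.11 (SE 0.07, adjusted p = 0.35).

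Among chaperones, the largest learning response was that of Hspa5 (ENSMUSG00000026864, chr2:34771970-34777547), which encodes BiP, the main Hsp70 chaperone of the ER and the protein that holds the 3 sensors inactive. Hspa5 was at 178, 283, 174 and 217 CPM in home cage water mice and at 201.5, 267, 257 and 183 CPM in home cage caffeine mice. It was at 311, 267, 276 and 257 CPM in learning water mice and at 340.3, 282, 362 and 339.8 CPM in learning caffeine mice. Home cage water mouse 8 reached the level of the learning water mice, while the learning caffeine mice were all above the home cage caffeine mice. The change was 1.46-fold under caffeine (log2 0.55, SE 0.14, adjusted p = 0.0477), 1.30-fold under water (log2 0.38, SE 0.14, adjusted p = 0.278) and 1.38-fold on average (log2 0.46, SE 0.10, adjusted p = 0.00936).

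Hyou1 (ENSMUSG00000032115, chr9:44379490-44392369), a large Hsp70-type chaperone that works with BiP, was at 94.1, 108, 96.1 and 97.6 CPM in home cage water mice and at 99.7, 102, 109 and 85.1 CPM in home cage caffeine mice. It was at 110.2, 111, 106 and 107 CPM in learning water and at 127, 117, 129 and 115 CPM in learning caffeine mice. The learning caffeine mice were all above the home cage caffeine mice, as in 5.64% of all tested genes. They were also all above the learning water mice, as in 1.25% of all tested genes. Its log2 fold change was 0.30 (SE 0.07, adjusted p = 0.0253) under caffeine and 0.14 (SE 0.07, adjusted p = 0.447) under water.

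Of the BiP partners of the DnaJ family only Dnajc3 was called on average, and no test compared these genes with each other. Dnajc3 (p58IPK) was at 70.0, 79.1, 65.6 and 72.6 CPM in home cage water mice, at 68.3, 76.7, 74.5 and 57.4 CPM in home cage caffeine mice, at 79.6, 73.0, 74.5 and 76.3 CPM in learning water mice and at 80.6, 72.1, 87.6 and 87.1 CPM in learning caffeine mice. The groups overlapped under both treatments, and its average log2 fold change of 0.16 (SE 0.06) passed the threshold narrowly (adjusted p = 0.0994). Dnajb11 (ERdj3) was at 47.4, 53.3, 44.7 and 52.9 CPM in home cage water mice, at 45.9, 49.6, 54.9 and 49.9 CPM in home cage caffeine mice, at 53.8, 46.4, 49.2 and 48.8 CPM in learning water mice and at 58.2, 54.2, 60.6 and 56.3 CPM in learning caffeine mice. Its learning caffeine mice were above all learning water mice, but home cage caffeine mouse 14 lay within their range. The log2 fold change of Dnajb11 was 0.20 (SE 0.07, adjusted p = 0.138) under caffeine, and under water its 95% confidence interval ran from -0.15 to 0.14. Dnajb9 (ERdj4) stayed between 30.5 and 35.9 CPM in the 16 mice.

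Pdia4 and Pdia6, which form and exchange disulfide bonds, were called on average with log2 fold changes of 0.33 (SE 0.09, adjusted p = 0.0356) and 0.22 (SE 0.07, adjusted p = 0.0581). Pdia4 was at 36.3, 46.6, 33.7 and 39.3 CPM in home cage water mice, at 38.5, 48.5, 41.4 and 28.5 CPM in home cage caffeine mice, at 49.8, 46.0, 44.9 and 45.7 CPM in learning water mice and at 49.5, 42.9, 58.1 and 57.4 CPM in learning caffeine mice. Home cage mice 8 and 9 lay within the learning range, and home cage caffeine mouse 17 was the lowest of all. Pdia6 was at 87.9, 123, 89.5 and 101 CPM in home cage water mice, at 99.4, 116, 125 and 101 CPM in home cage caffeine mice, at 126, 113, 118 and 106 CPM in learning water mice and at 141, 123, 137 and 121 CPM in learning caffeine mice. The other 2 isomerases, Pdia3 and P4hb, had average log2 fold changes of 0.09 (adjusted p = 0.287) and -0.02 (adjusted p = 0.719).

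Of the small lumenal proteins that are known targets of the response, 3 were called on average. Sdf2l1, a partner of the ER DnaJ proteins, was at 7.98, 8.83, 6.27 and 6.64 CPM in home cage water mice, at 7.39, 9.74, 8.26 and 6.86 CPM in home cage caffeine mice, at 9.89, 8.34, 8.69 and 7.17 CPM in learning water mice and at 11.4, 8.63, 11.3 and 11.02 CPM in learning caffeine mice. Learning caffeine mouse 27 was low, at the level of the home cage mice, and the average log2 fold change was 0.30 (SE 0.10, adjusted p = 0.0605). Creld2 was at 10.5, 12.1, 11.7 and 10.7 CPM in home cage water mice, at 10.7, 14.2, 11.8 and 11.3 CPM in home cage caffeine mice, at 16.4, 12.8, 12.8 and 10.2 CPM in learning water mice and at 15.7, 12.9, 16.7 and 14.95 CPM in learning caffeine mice, and its average log2 fold change was 0.28 (SE 0.09, adjusted p = 0.059). Learning water mouse 38 had the lowest Creld2 value of all 16. Manf, a secreted factor with neuroprotective activity, was at 32.7, 38.8, 29.8 and 33.5 CPM in home cage water mice, at 31.9, 40.5, 37.1 and 30.4 CPM in home cage caffeine mice, at 40.9, 37.2, 39.5 and 30.2 CPM in learning water mice and at 42.9, 38.6, 45.0 and 43.7 CPM in learning caffeine mice. Its groups overlapped and its average log2 fold change was 0.21 (SE 0.07, adjusted p = 0.0846).

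The most abundant chaperones did not pass the test. Hsp90b1 (GRP94) was at 275, 353, 297 and 331 CPM in home cage water mice, at 345, 329, 361 and 271 CPM in home cage caffeine mice, at 349, 311, 324 and 341 CPM in learning water mice and at 367, 342, 364 and 337 CPM in learning caffeine mice, an average log2 fold change of 0.09 (SE 0.06, adjusted p = 0.33). Calr, the lectin chaperone calreticulin, was at 265, 341, 267 and 319 CPM in home cage water mice, at 339, 314, 329 and 316.5 CPM in home cage caffeine mice, at 362, 312, 307.5 and 307 CPM in learning water mice and at 392, 357, 359 and 314.5 CPM in learning caffeine mice, an average log2 fold change of 0.12 (SE 0.06, adjusted p = 0.202). Canx, its membrane-bound counterpart calnexin, had group means from 353 to 354 CPM, and the 95% confidence interval of its average log2 fold change ran from -0.08 to 0.07. A part of the exons of Hsp90b1, 10.3%, overlaps the gene model 1810014B01Rik on the opposite strand, and the strand setting of the counting is not given in the sources used here.

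**Figure D1:**
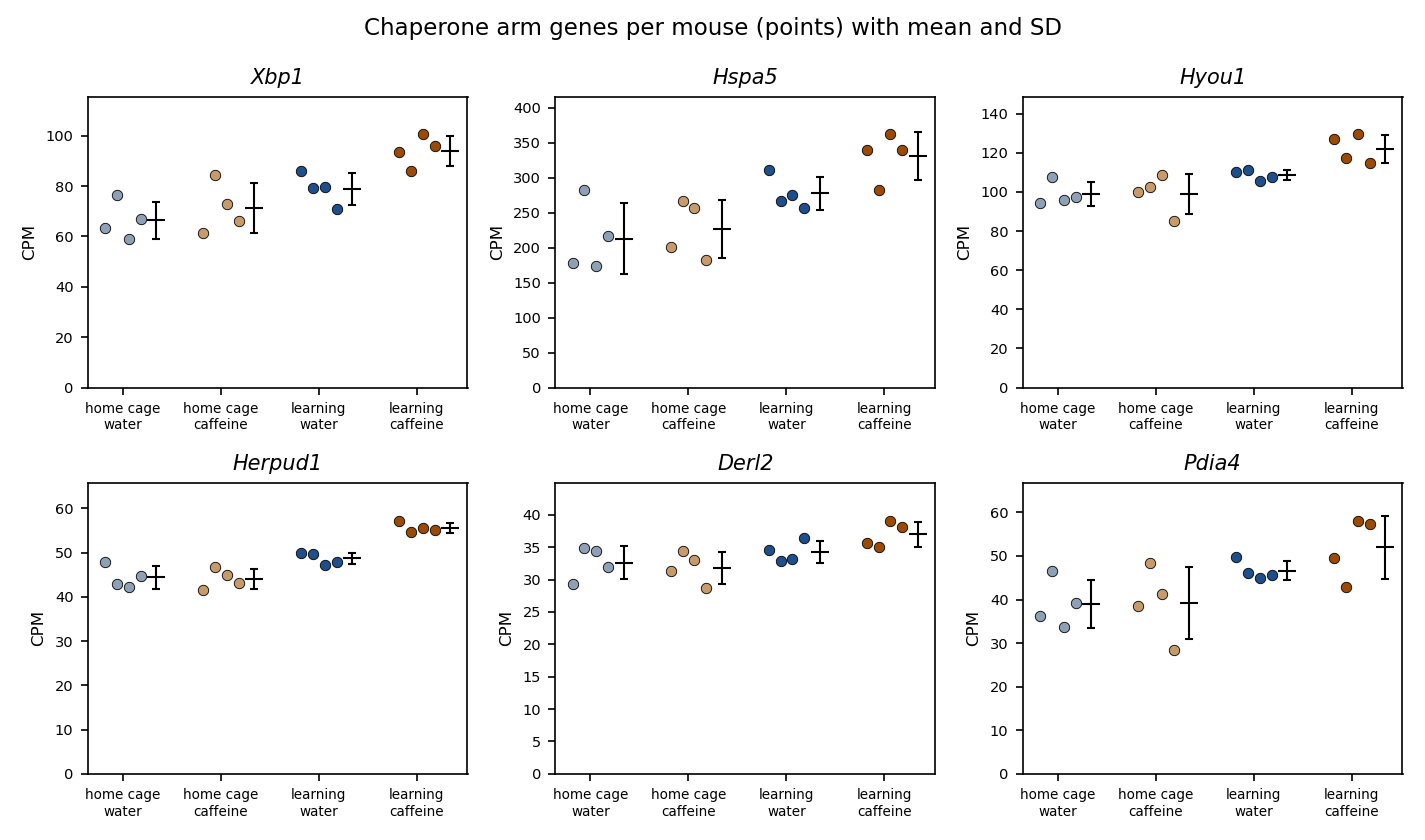
CPM of 6 chaperone arm genes in each of the 16 mice (points, 4 per group), with the group mean and SD as bars beside them and the y axis starting at 0. For Xbp1, Hspa5, Hyou1, Herpud1 and Derl2 the 4 learning caffeine mice lie above the 4 home cage caffeine mice, and for Pdia4 the groups overlap.

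The genes of ER-associated degradation held the chaperone arm gene with the smallest p value. Herpud1 (ENSMUSG00000031770, chr8:94386438-94395377), which encodes a membrane scaffold of the degradation complex, was at 48.0, 42.9, 42.1 and 44.8 CPM in home cage water mice and at 41.6, 46.8, 44.9 and 43.1 CPM in home cage caffeine mice. It was at 49.8, 49.8, 47.1 and 48.0 CPM in learning water mice and at 57.2, 54.6, 55.6 and 55.1 CPM in learning caffeine mice. The learning caffeine mice were all above the home cage caffeine mice and all above the learning water mice. The learning water mice lay between the learning caffeine mice and most home cage mice. The shares of all tested genes without these overlaps are those given for Hyou1. The log2 fold change of Herpud1 was 0.34 (SE 0.05, adjusted p = 0.00341) under caffeine, 0.13 (SE 0.05, adjusted p = 0.319) under water and 0.23 (SE 0.04, adjusted p = 0.0012) on average. Derl2 (ENSMUSG00000018442, chr11:71007164-71019841), a derlin of the retrotranslocation channel, was at 29.4, 34.8, 34.4 and 31.9 CPM in home cage water mice, at 31.3, 34.4, 32.98 and 28.6 CPM in home cage caffeine mice, at 34.6, 32.9, 33.1 and 36.4 CPM in learning water mice and at 35.6, 35.0, 39.1 and 38.1 CPM in learning caffeine mice. It was called under caffeine (log2 fold change 0.22, SE 0.07, adjusted p = 0.0965) with no overlap between the groups and on average (0.14, SE 0.05, adjusted p = 0.0723).

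The ubiquitin ligase gene Syvn1 (HRD1) missed the threshold on average with a log2 fold change of 0.13 (SE 0.05, adjusted p = 0.105), and its adaptor Sel1l had 0.06 (SE 0.04, adjusted p = 0.359). Derl1 had -0.03, and the mannose-trimming genes Edem1 and Edem2 had 0.03 and 0.02, with adjusted p values from 0.638 to 0.818. Derl3 was near the detection limit, with 7 to 54 counts per mouse, and its average log2 fold change of 0.28 had a 95% confidence interval from -0.11 to 0.67. The 3 genes of the Sec61 translocon, the channel through which new proteins enter the ER, were not called. Sec61a1 had an average log2 fold change of 0.10 (SE 0.04, adjusted p = 0.124), Sec61b of -0.10 (SE 0.07, adjusted p = 0.414) and Sec61g of 0.05 (SE 0.09, adjusted p = 0.745).

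Per kilobase of exon, the level over the 16 mice was highest for Calr with 113 CPM, followed by Hsp90b1 with 82.1, Canx with 75.3, Pdia3 with 65.3 and Hspa5 with 62.0 CPM. From the home cage water to the learning caffeine group the level of Hspa5 per kilobase went from 50.4 to 78.3 CPM and that of Canx from 75.4 to 75.2 CPM. Xbp1 had 23.9, Herpud1 20.7, Atf6 12.2 and Ern1 1.74 CPM per kilobase. In the Atf4 arm the level ran from 51.1 CPM per kilobase for Atf4 to 0.227 for Trib3.

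The upstream sequences of these genes hold motifs known from the response. The ER stress response element (ERSE: CCAAT, any 9 bases, CCACG) is bound by Atf6 with NF-Y at the CCAAT box, and ERSE-II is ATTGG, any base, CCACG. Both strands of the 250 bases before the RefSeq transcript start were searched in GRCm38.p6, the build of mm10, for the 31 of the 36 genes with a promoter in the RefSeq table. Atf6, Derl1, Hyou1, Manf and Sec61a1 had none. An ERSE was found in 9 of the 24 chaperone arm genes with a promoter, in none of the 7 Atf4 arm genes and in 37 of all 32851 promoters (0.113%). ERSE-II was found in Herpud1 and in 10 of all promoters (0.0304%). The counts for the arms are of genes, whereas those for all promoters are of promoters and are not limited to tested genes. No match overlapped another. The windows shown are those of the 5 matched genes that were called on average and, for contrast, of 3 abundant chaperones that were not, with the motif and the bases inside it in capitals, written 5′ to 3′ on the strand named.
Hspa5 ERSE, chr2:34772020-34772048, plus strand: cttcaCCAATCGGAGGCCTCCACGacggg
Herpud1 ERSE-II, chr8:94386372-94386392, plus strand: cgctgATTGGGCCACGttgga
Pdia6 ERSE, chr12:17266486-17266514, plus strand: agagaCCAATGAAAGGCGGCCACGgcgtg
Dnajc3 ERSE, chr14:118937822-118937850, plus strand: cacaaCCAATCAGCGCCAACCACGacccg
Creld2 ERSE, chr15:88819515-88819543, minus strand: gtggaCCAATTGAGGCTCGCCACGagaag
Hsp90b1 distal ERSE, chr10:86705633-86705661, minus strand: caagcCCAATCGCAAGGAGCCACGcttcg
Hsp90b1 proximal ERSE, chr10:86705528-86705556, plus strand: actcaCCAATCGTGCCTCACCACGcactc
Calr ERSE, chr8:84847070-84847098, plus strand: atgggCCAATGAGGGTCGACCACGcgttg
Canx ERSE, chr11:50325795-50325823, minus strand: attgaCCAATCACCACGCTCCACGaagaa

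The other ERSE matches were upstream of Derl3 and Syvn1. The Hspa5 window lies downstream of the first base of the GENCODE gene model, which starts farther upstream than the RefSeq transcript. Of the 10 chaperone arm genes with an ERSE or ERSE-II, 5 were called higher on average and their median log2 fold change was 0.19, with a range from -0.01 for Canx to 0.46 for Hspa5. Of the 14 with a promoter and no match, 5 were called (Xbp1, Ern1, Pdia4, Sdf2l1 and Derl2) and the median was 0.08, with a range from -0.10 to 0.33. A match was thus present both in called genes and in genes without a detectable change. The core of the UPRE, TGACGTGG, known as a site of Xbp1, was in 0.563% of all promoters, and the core of the amino acid response element, TGATGNAAT, a site of Atf4, in 0.816%; neither was in any of the 31 genes' windows. A match is a description of these letters and does not show that a factor bound there. Sites farther upstream or with other letters were not looked for. A missing match thus does not show that a gene has no such site.

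**Figure D2:**
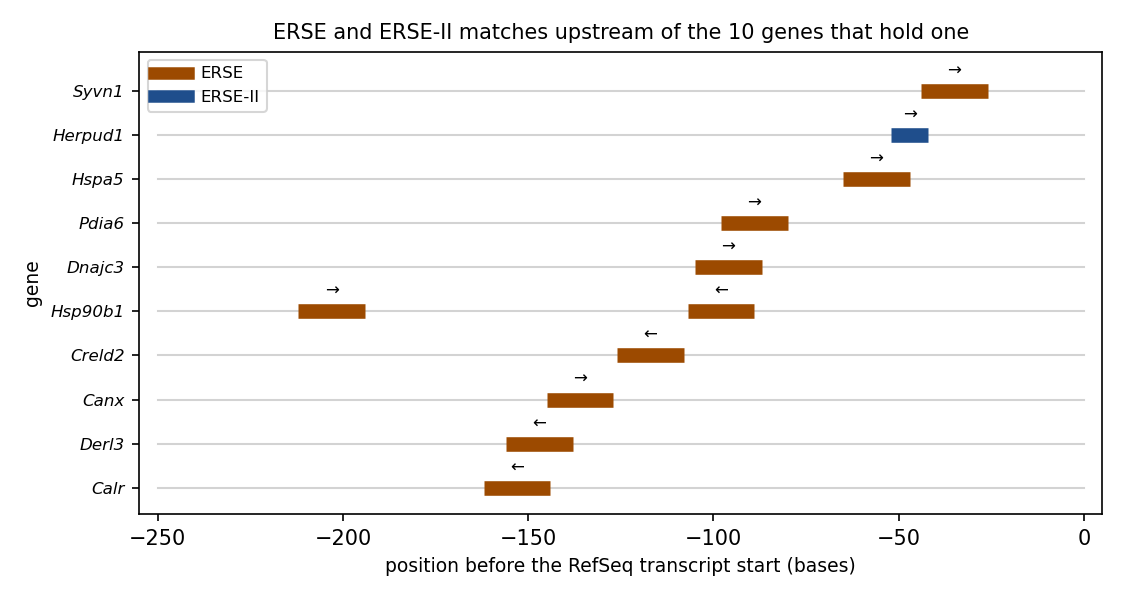
Positions of ERSE (brown) and ERSE-II (blue) matches in the 250 bases before the RefSeq transcript start of the 10 chaperone arm genes that hold one; arrows give the orientation relative to the gene. The matches of Syvn1, Herpud1 and Hspa5 begin 44, 52 and 65 bases before the start, and Hsp90b1 has 2, which begin 212 and 107 bases before it.

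The learning response was also compared within each treatment. Under caffeine, 5 of the 29 chaperone arm genes were called higher (Xbp1, Hspa5, Hyou1, Herpud1 and Derl2), against 3.16% of all tested genes. In 5 of the 29 (17.2%) the 4 learning mice were all above the 4 home cage mice, against 5.64% of all tested genes. They were the same 5 genes, called from the same mice, so the missing overlap is not separate evidence. For each of the 5, an exact two-sided permutation test of the 8 CPM values gave p = 0.0286, the smallest that the 70 assignments allow, which restates that the groups do not overlap. Over 76 such tests, of 19 genes in the 4 comparisons between 2 groups, 11 gave this exact p, and the smallest adjusted exact p was 0.198. At an unadjusted p under 0.05 there were 13 higher chaperone arm genes, against 9.35% of all tested genes. Under water none of the 29 was called by edgeR, against 0.639% of all tested genes, none by DESeq2, and 4 (Xbp1, Ern1, Hspa5 and Herpud1) had a higher level at an unadjusted p under 0.05, against 6.11% of all tested genes. The median log2 fold change of the chaperone arm was 0.13 under caffeine and 0.11 under water, and 24 of the 29 genes had a log2 fold change above 0 under each treatment, against 47.1% of all tested genes under caffeine and 48.5% under water. The Atf4 arm had no call under either treatment, no gene with an unadjusted p under 0.05, and medians of -0.01 under caffeine and -0.02 under water. Without learning water mouse 24 the median of the chaperone arm under water was 0.07. The Atf4 arm medians lay on either side of 0 when single mice were left out, from -0.06 to 0.01 under caffeine and from -0.03 to 0.04 under water.

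**Figure D3:**
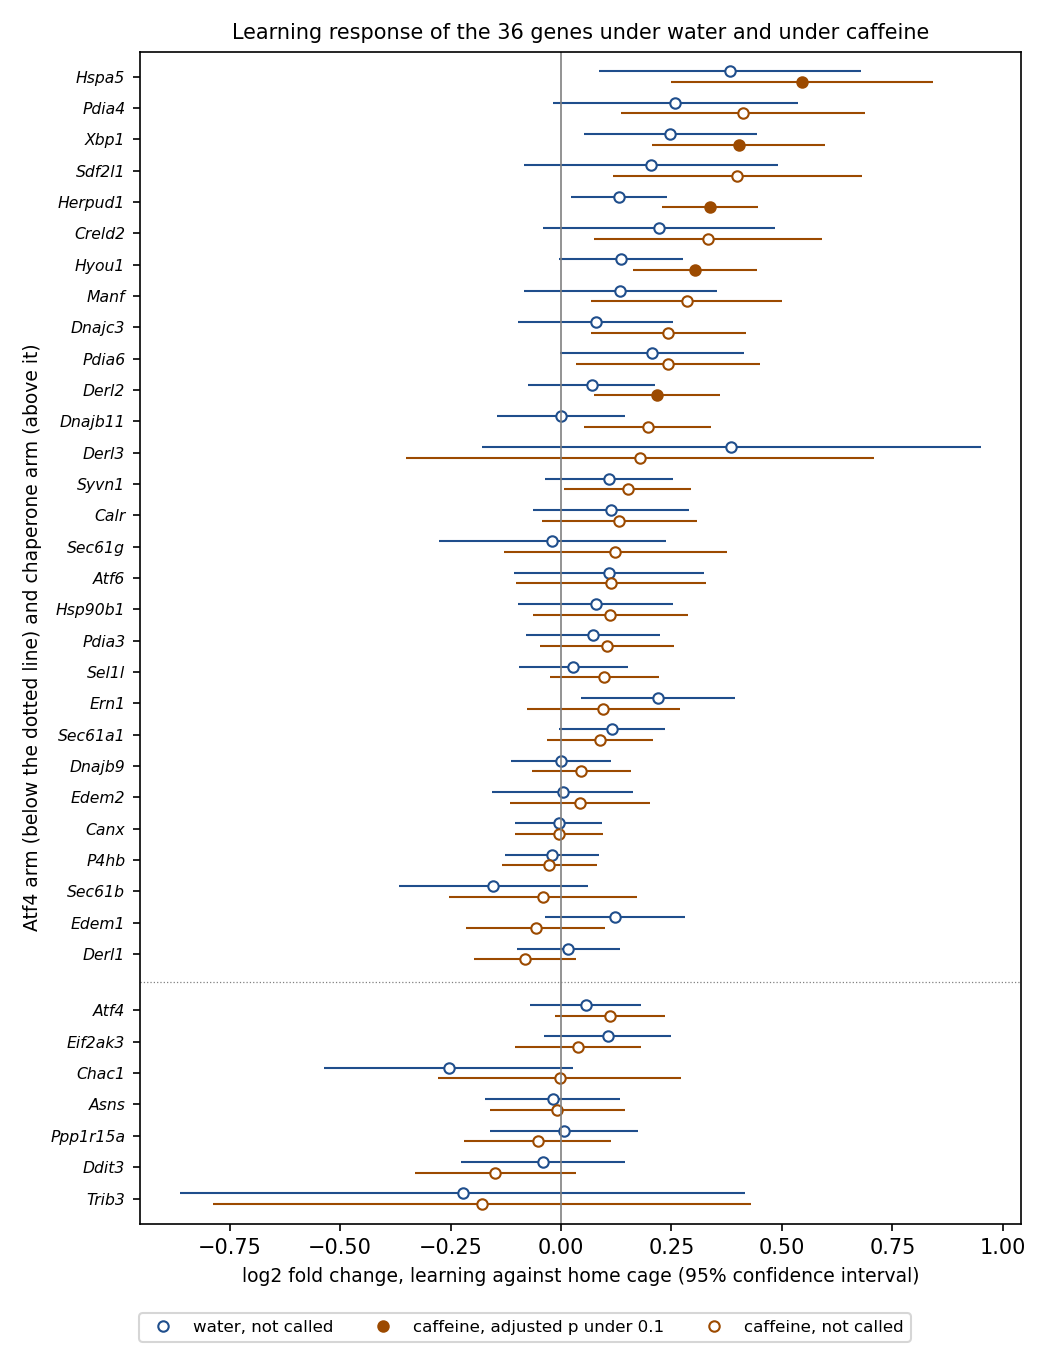
Difference of learning from home cage mice as a log2 fold change with its 95% confidence interval for the 36 genes, under water (blue) and under caffeine (brown), with genes ordered within each arm by their value under caffeine and filled points for genes called at an adjusted p under 0.1. The 5 filled points are Hspa5, Xbp1, Herpud1, Hyou1 and Derl2 under caffeine. The intervals under water and caffeine overlap for every gene, which is not a test of the difference between the responses.

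The counts of called genes depended on single mice. Under caffeine the count of 5 became 10 without home cage water mouse 8, 9 without home cage caffeine mouse 9, 8 without learning water mouse 24 or learning caffeine mouse 27, and 3 without home cage caffeine mouse 2 or 17 or learning caffeine mouse 30 or 40. Xbp1, Hyou1 and Herpud1 kept their call under caffeine without any single mouse, with adjusted p values of at most 0.0945, 0.0839 and 0.0197, while Hspa5 lost it without mouse 2, 17, 30 or 40 (adjusted p up to 0.137) and Derl2 without mouse 20, 2, 17, 33, 36, 22, 30 or 40 (up to 0.235). On average over both treatments the count of 12 became 7 without home cage water mouse 20, home cage caffeine mouse 17 or learning caffeine mouse 40, and 5 without learning caffeine mouse 30. Xbp1, Hspa5, Hyou1, Pdia4 and Herpud1 kept their average call in all 16 omissions. Under water the count of 0 became 2, Hspa5 and Pdia6, without home cage water mouse 8.

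The average call of Pdia6 was lost without mouse 17 or 30 and that of Creld2 without mouse 20 or 30, with adjusted p values up to 0.104 and 0.111. Sdf2l1 lost it without mouse 20, 17, 30 or 40 (up to 0.114) and Derl2 without mouse 6, 20, 17, 38, 30 or 40 (up to 0.132). The calls of Manf and Dnajc3 were lost in 10 of 16 omissions each (up to 0.147 and 0.172) and that of Ern1 in 11 (up to 0.18). Ern1 kept it without mouse 8, 11, 14, 22 or 27, Dnajc3 without mouse 8, 2, 9, 14, 22 or 27, and Manf without mouse 8, 9, 14, 38, 22 or 27.

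The mice of a group differed across the whole chaperone arm. The mean deviation of the 29 genes from their means over 16 mice, on the log2 scale, was -0.18, 0.04, -0.17 and -0.07 in home cage water mice and -0.09, 0.03, 0.03 and -0.17 in home cage caffeine mice. It was 0.12, -0.01, 0.01 and -0.04 in learning water and 0.14, 0.06, 0.17 and 0.13 in learning caffeine mice. The 4 learning caffeine mice were thus the only group with every mouse above 0.05, whereas home cage water mouse 8 was higher than 3 of the 4 learning water mice. The Atf4 arm lay between -0.18 and 0.12 in the 16 mice, with learning water mouse 38 lowest and home cage caffeine mouse 17 highest.

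**Figure D4:**
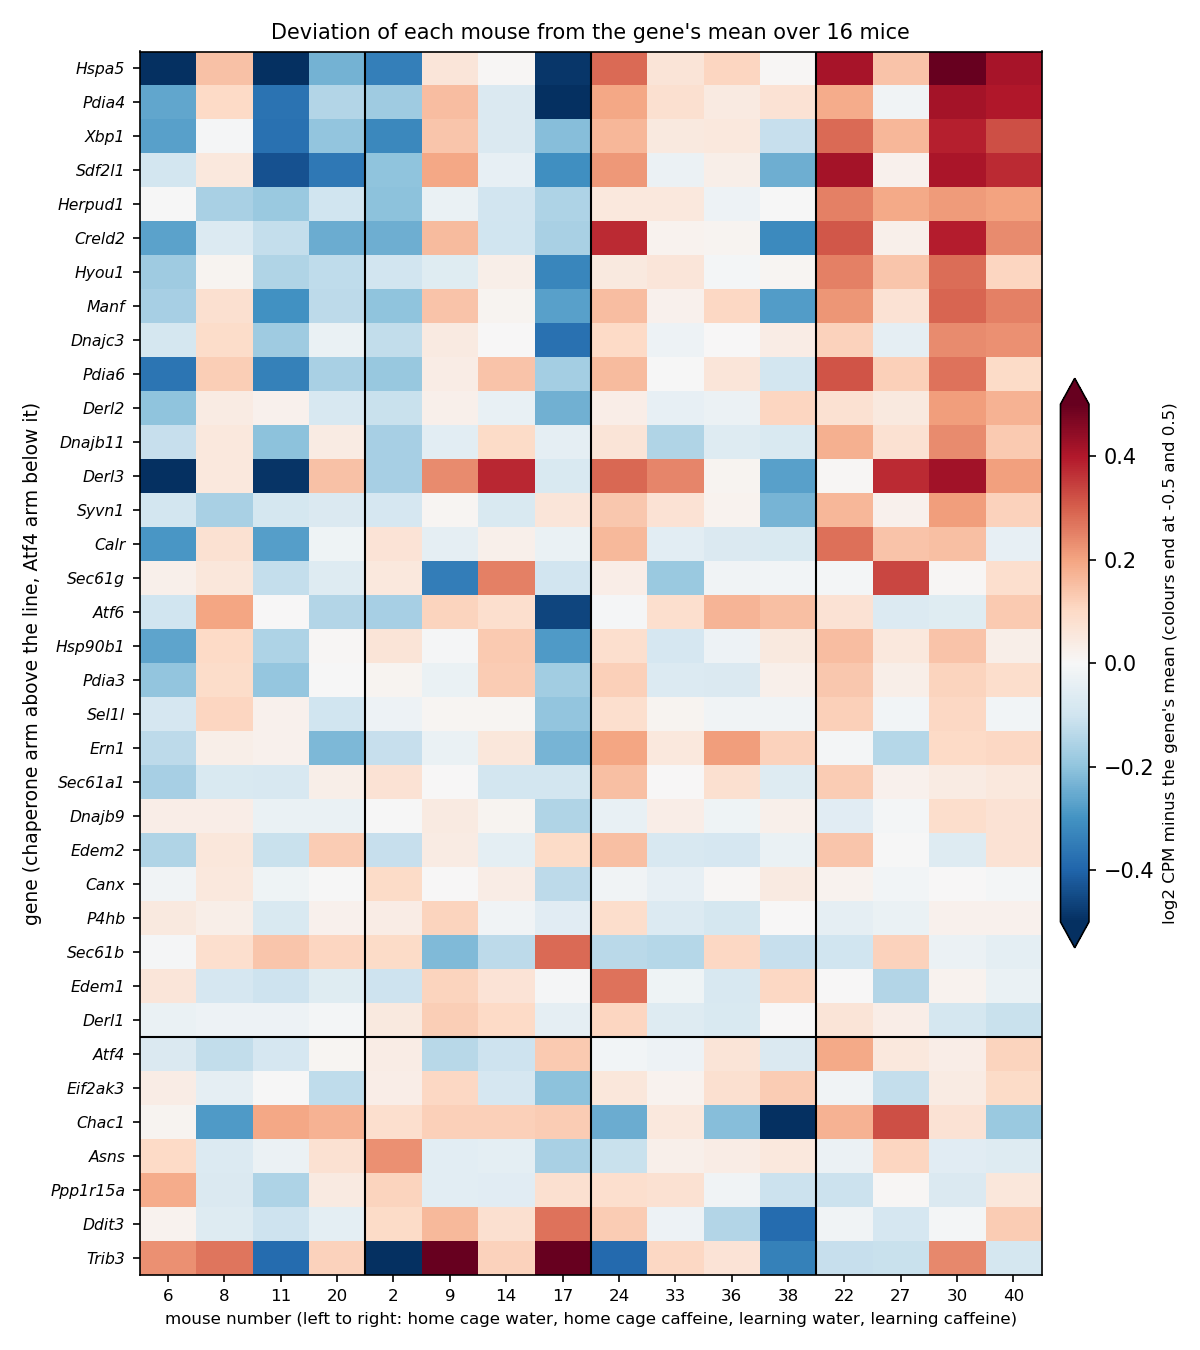
Log2 CPM of each mouse minus the gene's mean over the 16 mice, in colour from -0.5 (blue) to 0.5 (red), for the 36 genes in rows and the mice in columns grouped by condition and drink. Rows are ordered within each arm by the log2 fold change with learning under caffeine. The upper rows, from Hspa5 to Dnajb11, are mostly red in the learning caffeine mice, which follows in part from this order. They are mostly blue in home cage water mice 6 and 11 and home cage caffeine mouse 17. The Atf4 arm rows show no such block.

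Within groups, the chaperone genes varied together. After removal of the group means, the log2 CPM of Hspa5 correlated over the 16 mice with that of Xbp1 (Pearson's r = 0.884, Spearman's rho = 0.891, adjusted permutation p = 0.00051 and 0.00189 over 6 pairs) and of Pdia4 (r = 0.877, rho = 0.876, adjusted permutation p = 0.00051 and 0.00189). With Hsp90b1 it was r = 0.743 (rho = 0.718, adjusted permutation p = 0.024 and 0.0556) and with Calr r = 0.56 (rho = 0.529, adjusted permutation p = 0.0935 and 0.0992). Without home cage mice 8 and 17, farthest from the median of Hspa5, r was 0.88 for Xbp1, 0.859 for Pdia4, 0.597 for Hsp90b1 and 0.42 for Calr. Hspa5 and Atf4 gave r = -0.444 (rho = -0.409, adjusted permutation p = 0.185 and 0.241), with -0.237 without those 2 mice. Atf4 and its target Asns gave r = 0.0336 (rho = 0.0324, adjusted permutation p = 0.956 and 0.928), with 0.308 without home cage caffeine mice 17 and 9. Unadjusted permutation p values for r were 0.00017 for Xbp1, 9e-05 for Pdia4, 0.012 for Hsp90b1, 0.0623 for Calr, 0.154 for Atf4 and 0.956 for Atf4 with Asns.

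As a description, r with Hspa5 had a median of 0.619 over the other 28 chaperone arm genes, -0.30 over the 7 Atf4 arm genes and 0.0177 over all other tested genes. It was above 0.5 for 17 of the 28, for none of the 7 and for 8.71% of all others. The highest values were those of Pdia6 (0.908), Xbp1, Pdia4, Dnajc3 (0.873) and Manf (0.86), and the lowest in the chaperone arm that of Sec61b (-0.545). Herpud1, the gene with the smallest p after learning, had r = 0.22 with Hspa5. These values share libraries, depth and tissue content.

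The Atf4 arm was described with the same values. Eif2ak3, the sensor kinase of this arm, was at 26.6, 25.2, 25.9 and 23.8 CPM in home cage water mice, at 26.6, 27.9, 24.5 and 22.5 CPM in home cage caffeine mice, at 27.03, 26.3, 27.5 and 28.4 CPM in learning water mice and at 25.7, 23.9, 26.8 and 27.8 CPM in learning caffeine mice. Its average log2 fold change was 0.07 (SE 0.05, adjusted p = 0.369), and 8.0% of its exon bases overlap another gene model on the opposite strand. Atf4 (ENSMUSG00000042406, chr15:80255184-80257541) was at 114, 110.2, 113 and 121 CPM in home cage water mice, at 123, 109, 112 and 131.5 CPM in home cage caffeine mice, at 119, 118, 126 and 114 CPM in learning water mice and at 137, 125, 123 and 129.8 CPM in learning caffeine mice. Learning and home cage mice overlapped under both treatments, and the log2 fold change of Atf4 was 0.11 (SE 0.06, adjusted p = 0.318) under caffeine, 0.06 (SE 0.06, adjusted p = 0.744) under water and 0.08 (SE 0.04, adjusted p = 0.222) on average. Without home cage caffeine mouse 17, which had the second highest Atf4 level, Atf4 was called higher on average, the only call in this arm under any alternative. Translation of Atf4, the step that the kinase controls, is not seen in mRNA counts.

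Ddit3, the transcription factor CHOP of prolonged ER stress, was at 18.9, 17.8, 17.4 and 18.1 CPM in home cage water mice, at 20.0, 20.9, 19.7 and 22.5 CPM in home cage caffeine mice, at 20.4, 18.4, 16.9 and 14.3 CPM in learning water mice and at 18.4, 17.6, 18.6 and 20.4 CPM in learning caffeine mice. Its home cage caffeine mice were all above the home cage water mice, and the learning mice overlapped both. It was the only 1 of the 36 genes (2.78%) with this pattern, against 0.981% of all tested genes, and it was not called between these groups. The average log2 fold change with learning was -0.09 (SE 0.06, adjusted p = 0.351). A second gene model of the same name shares 6.1% of its exon bases on the same strand.

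The 5 downstream genes of this arm, Ddit3, Trib3, Ppp1r15a, Chac1 and Asns, each had an average log2 fold change below 0 and none was called. Eif2ak3 and Atf4 were the 2 of the 7 above 0, against 46.0% of all tested genes. Asns, asparagine synthetase, had means of 99.6 and 97.9 CPM in the home cage water and caffeine groups and of 98.3 and 97.4 CPM in the learning water and caffeine groups, and the 95% confidence interval of its average log2 fold change ran from -0.12 to 0.09. Ppp1r15a, which encodes the phosphatase subunit GADD34 that reverses the block of translation, had group means of 13.1, 13.3, 13.2 and 12.8 CPM and an average log2 fold change of -0.02 (SE 0.06, adjusted p = 0.834). Chac1, a glutathione-degrading enzyme, had 6.05 ± 0.883, 6.38 ± 0.0868, 5.07 ± 0.827 and 6.36 ± 0.923 CPM (mean ± SD, n = 4). Its average log2 fold change was -0.13 (SE 0.09, adjusted p = 0.409). Trib3, a pseudokinase that binds Atf4, was low at 10 to 28 counts per mouse, and its average log2 fold change of -0.20 had an interval from -0.64 to 0.24.

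**Figure D5:**
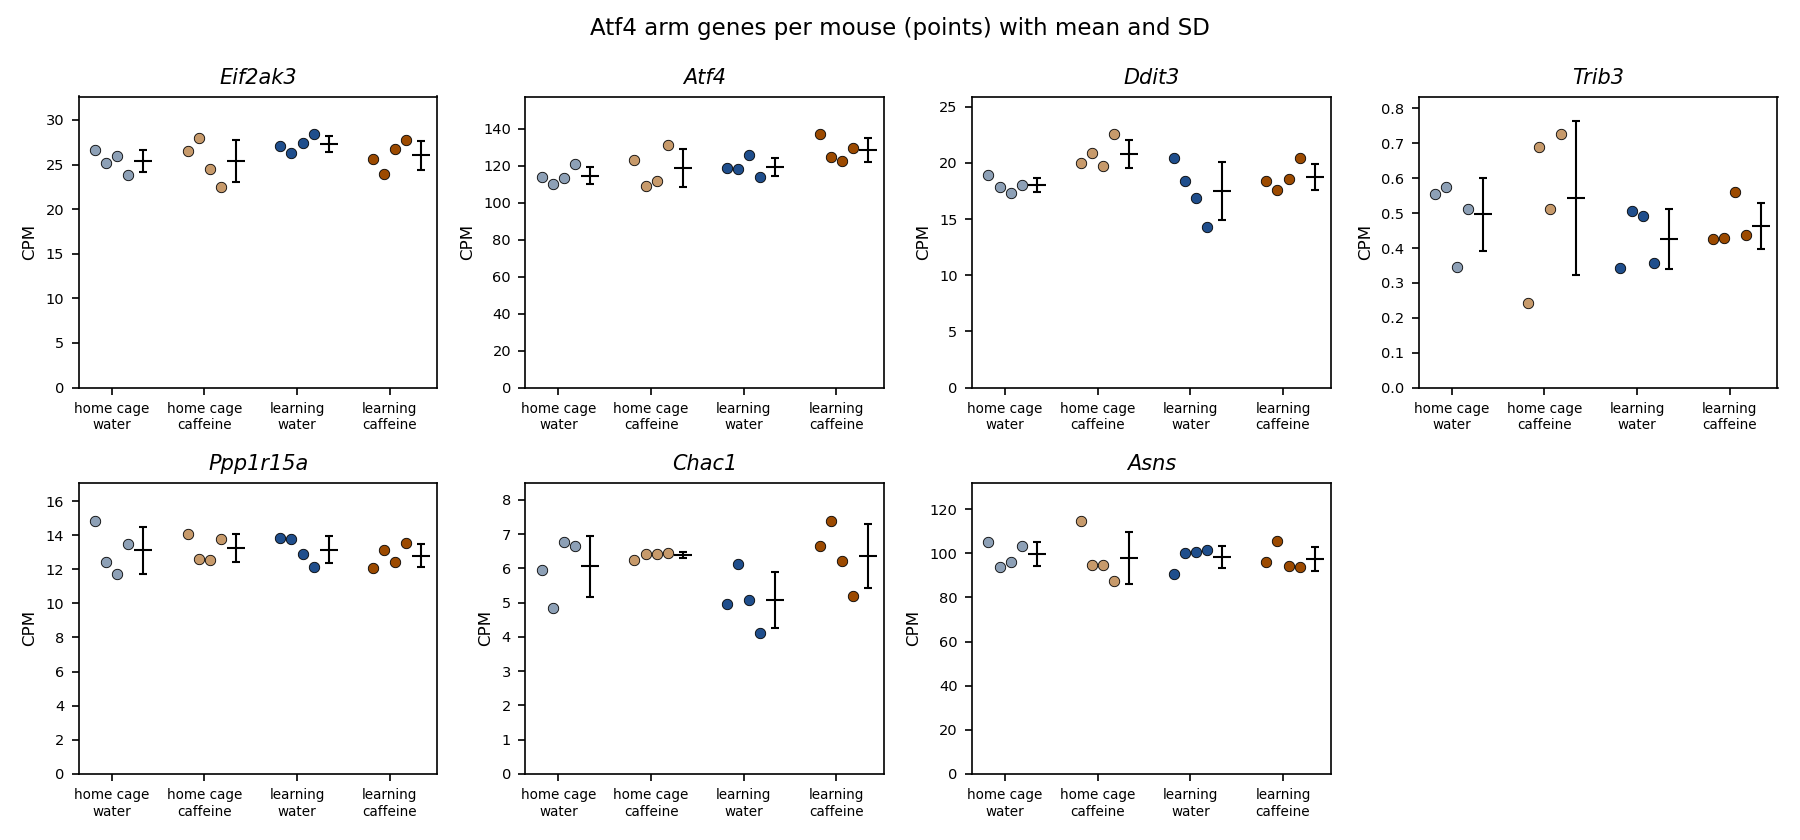
CPM of the 7 Atf4 arm genes in each of the 16 mice (points, 4 per group), with the group mean and SD as bars beside them and the y axis starting at 0. Groups that differ in learning or in drink alone overlap for each gene, except that the home cage caffeine mice are above the home cage water mice for Ddit3, which was not called.

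Between caffeine and water none of the 36 genes was called, by edgeR or under any alternative. In the home cage edgeR called 0.0% of the 17830 genes. Over all genes DESeq2 called 2 higher and 17 lower there, edgeR on every gene with 1 count or more in all libraries summed called 3 higher and 31 lower, and edgeR without home cage water mouse 6 called 2 higher and 31 lower. No chaperone arm gene had an unadjusted p under 0.05. In the Atf4 arm Ddit3 had one (log2 fold change 0.20, SE 0.09, adjusted p = 0.997), against 1.72% of all tested genes in that direction, and its caffeine mice did not overlap the water mice, against 0.981% of all tested genes. The log2 fold change of Xbp1 was 0.10 (95% confidence interval from -0.10 to 0.29), that of Hspa5 0.09 (from -0.21 to 0.39) and that of Herpud1 -0.01 (from -0.12 to 0.10).

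After learning, edgeR called 0.0% of the tested genes between caffeine and water. Over all genes DESeq2 called 1 higher and 5 lower, and edgeR with that wider gene set called 1 higher and 7 lower. The median log2 fold change was 0.11 over the chaperone arm, 0.10 over the Atf4 arm and -0.004 over all tested genes. Of the 29 chaperone arm genes, 25 had a log2 fold change above 0, against 48.1% of all tested genes. At an unadjusted p under 0.05, 5 of them were higher (Xbp1, Hyou1, Dnajb11, Sdf2l1 and Herpud1), against 1.81% of all tested genes. In the Atf4 arm Chac1 alone was higher at that level. Its means were 6.36 CPM in learning caffeine and 5.07 CPM in learning water mice, against 6.05 and 6.38 CPM in home cage water and caffeine mice. The learning caffeine mice were all above the learning water mice for Xbp1, Hyou1, Dnajb11 and Herpud1, against 1.25% of all tested genes. The log2 fold change was 0.19 (SE 0.05) for Herpud1, 0.21 (SE 0.07) for Dnajb11, 0.25 (SE 0.09) for Xbp1, 0.17 (SE 0.07) for Hyou1, 0.31 (SE 0.13) for Sdf2l1 and 0.33 (SE 0.13) for Chac1, each with an adjusted p of 0.999. These differences use the same learning mice as the comparisons with the home cage, so they are not separate evidence.

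Whether the learning response itself differed between caffeine and water was tested as the difference of both log2 fold changes. None of the 36 genes was called by edgeR or DESeq2, and 0.0% of the 17830 genes were called by edgeR. DESeq2 called 1 higher and 5 lower over all genes, and edgeR with the wider gene set called 0 higher and 9 lower. For the 5 genes called under caffeine alone, the difference was 0.21 (95% confidence interval from 0.05 to 0.36) for Herpud1, 0.17 (from -0.03 to 0.37) for Hyou1, 0.15 (from -0.12 to 0.43) for Xbp1, 0.16 (from -0.25 to 0.58) for Hspa5 and 0.15 (from -0.05 to 0.35) for Derl2, each with an adjusted p of 1.0. Herpud1 was the only one of the 36 with an unadjusted p under 0.05, against 1.5% of all tested genes in that direction. A larger response under caffeine was thus not shown for any of these genes, and the interval held 0 for 4 of these 5.

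Other genes of these pathways, 148 tested genes in 9 lists, were called higher in 22 (14.9%) and lower in 10 cases (6.76%) on average over both treatments, against 7.81% higher and 6.71% lower of all tested genes, with a median log2 fold change of 0.01. The 10 with the smallest p were Gpt2, Atf3, Ppp1r15b, Bbc3, Stc2, Ero1l, Ube2g2, Dnajc1, Slc7a5 and Ubxn4. Gpt2, a mitochondrial transaminase listed as an Atf4 target, had a log2 fold change of 0.47 (SE 0.05, adjusted p = 3.44e-05), and Atf3, a transcription factor that also responds to neuronal activity, of 0.83 (SE 0.16, adjusted p = 0.00448). Ppp1r15b, the constitutive eIF2 alpha phosphatase subunit, had 0.20 and Bbc3, the proapoptotic protein PUMA, had -0.43. The oxidase gene Ero1l had 0.24, the degradation genes Ube2g2 and Ubxn4 had 0.21 and 0.12, and the chaperone partner Dnajc1 had 0.24. Stc2, a secreted glycoprotein, had 0.39, and Slc7a5, an amino acid transporter, had 0.22.

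By list, against the same shares of all tested genes, the other Atf4 targets held 6 called higher (24%) and 1 lower (4.0%) of 25, the other ER-associated degradation genes 4 higher (21.1%) and 0 lower of 19, and glycan processing and quality control 3 higher (21.4%) and 0 lower of 14. The other chaperones held 2 higher (8.7%) and 3 lower (13.0%) of 23, the other isomerases and oxidases 2 higher (14.3%) and 1 lower (7.14%) of 14, and the other regulators 1 higher (8.33%) and 4 lower (33.3%) of 12. Translocation genes had 1 higher and 1 lower of 21 (4.76% each), coat genes 2 higher (13.3%) and 0 lower of 15, and the kinases and phosphatases of eIF2 alpha 1 higher (20.0%) and 0 lower of 5. With 5 to 25 genes a list, single genes set these shares. EdgeR called none of these genes between caffeine and water after learning.

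Libraries held 23078094 to 49949281 counts, with 25235565 to 36815500 in home cage water, 23078094 to 41841785 in home cage caffeine, 30861776 to 44066666 in learning water and 36805213 to 49949281 in learning caffeine mice. The mitochondrial share of counts was 3.46% to 4.49% in home cage and 3.23% to 3.59% in learning mice, with the highest share in home cage caffeine mouse 17. The 10 hippocampal field markers were detected in every library, at a summed 1327 to 1632 CPM, and none was called. All 10 immediate early genes were called higher on average. Of 10 choroid plexus markers 9 were called lower on average, with a summed level of 311 to 2387 CPM in home cage water, 192 to 507 in home cage caffeine, 165 to 440 in learning water and 116 to 205 CPM in learning caffeine mice, and of 10 microglia markers 7 were called lower (501 to 583 CPM in home cage and 465 to 538 CPM in learning mice). Of the markers looked at, Gbx2 of the thalamus list was the only one at 0, in 4 libraries. Their part in the results of the 36 genes was not tested.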

How the data were processed

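RNA-Seq libraries came from the dorsal hippocampus of 16 mice. The authors sequenced stranded mRNA libraries as single-end reads of 50 bases. Reads were aligned to mm10 by STAR and Bowtie 2, those with a unique alignment were counted by HTSeq 0.6.1p1 in union mode, and the raw read counts per Ensembl gene were deposited. The counts carry no normalization, no sample was pooled, and whether strand was used in counting is not given in the sources used here.

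Tests were run with R 4.3.3 and edgeR 4.0.16: TMM normalization, filterByExpr with the 4 groups, a quasi-likelihood fit of a mean per group over 16 libraries and Benjamini-Hochberg adjustment over 17830 genes, with calls at an adjusted p under 0.1. The contrasts were learning against home cage under water, under caffeine and on average, caffeine against water in each condition, and the difference between the learning responses. The libraries held 23078094 to 49949281 counts. For the 36 genes the standard errors on the log2 scale ran from 0.0471 to 0.304 between 2 groups, from 0.0333 to 0.21 for the average and from 0.0666 to 0.417 for the difference between the responses.

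CPM were counts relative to the TMM-scaled total. Log2 CPM used a prior count of 2. Single genes were also tested by permuting 4 against 4 mice (exact, two-sided), and correlations by 100000 permutations within groups. The fold changes are edgeR's. Alternatives were DESeq2 1.42.0 (its size factors in edgeR, and its Wald test), edgeR on the 8 libraries compared, filters of at least 1 count in total or at least 10 in each, the threshold of 0.05, edgeR's robust option, and each mouse left out. Of the 24 replicate pairs, none agreed within sampling noise (chi-square per degree of freedom 5.65 to 33.2).

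The members, their arms and the lists of other pathway genes and markers were chosen with earlier results of these data known. Every mouse's value is given for Xbp1, Atf6, Ern1, Eif2ak3, Atf4, Ddit3, Hspa5, Hsp90b1, Calr and each member called, or with an unadjusted p under 0.01, in any contrast. Of the pathway genes, those called with the 10 smallest p values on average are named. Of 151 pathway genes 150 were matched and 148 tested. Promoter sequences are from RefSeq (GRCm38.p6).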

Additional observations from a re-analysis of the deposited data

Results flagged for a closer look

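Within groups of 4 mice, 76 sets of values (19 genes with values for every mouse, in 4 groups) were looked at for a mouse far from the other 3. Of these, 2 were found. Chance would give about 1 in 20 groups, a larger share than 2 of 76, so these 2 are not more than chance gives. Calr in learning water mouse 24 was at 362 CPM, against 307 to 312 CPM in the other 3 mice of its group. Sdf2l1 in learning caffeine mouse 27 was at 8.63 CPM, against 11.02 to 11.35 CPM in the other 3. The gap made up 0.909 of the range of the group for Calr and 0.878 for Sdf2l1, above Dixon's 95% critical value for 4 values. Mouse 24 had the highest summed level of oligodendrocyte markers, 12770 CPM, against 5350 to 9544 CPM in the other 15 mice, and the part of this in its Calr level was not tested.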

How the results depend on the processing

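The 17 fold changes of called genes kept their sign in all 379 recomputed values. Of 12 medians of an arm, 6 changed sign in 27 of 260 recomputed values: the Atf4 arm medians with learning (up to 0.04 under water, 0.01 under caffeine and 0.01 on average) and of the difference between the responses (from 0.01 to -0.04), and both arms' medians between caffeine and water in the home cage (from 0.01 to -0.0017 in the chaperone arm and from 0.05 to -0.003 in the Atf4 arm). The correlation of Atf4 with Asns, near 0, ran from -0.196 to 0.455 without single mice. DESeq2's Wald test called 11 chaperone arm genes under caffeine, against 5 by edgeR, and an adjusted p under 0.05 left 5 of the 12 called on average. The cause was not tested in the first case, and the second follows from the stricter threshold. The other settings gave 4 to 6 under caffeine and 11 to 14 on average. Without single mice the chaperone arm counts ran from 3 to 10 under caffeine, from 5 to 17 on average and from 0 to 2 under water, and the Atf4 arm count on average from 0 to 1. Of 199 further results without a call in edgeR, 15 were called under some alternative. Derl2 was not called under caffeine on the 8 libraries compared or with the filter of at least 1 count in total, nor Ern1 on average with that filter. The median log2 fold change of the Atf4 arm between caffeine and water after learning, 0.10, moved to 0.02 without learning water mouse 38 or learning caffeine mouse 30. No paired analysis was possible because the mouse numbers in the labels are unique to each mouse. With 4 mice a group the median standard error between 2 groups was near 0.10 over all tested genes. The 95% confidence intervals of the average log2 fold changes of Calr (from -0.0017 to 0.25) and Atf4 (from -0.0049 to 0.17) held 0, which does not show that they did not change.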
